A study of Mus musculus with 6 samples.

Results

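The genes described here were 8 genes of the oligodendrocyte lineage, the cells that myelinate axons in the central nervous system. They were the transcription factors Olig1, Olig2, Sox10, Sox8 and Nkx2-2 and the surface proteins Pdgfra, Egfr and Cspg4. The 8 genes were chosen by name from the 37991 genes in the files, with their measured difference between FGF2 and vehicle embryos known, so their values in that contrast are a description without a test. RNA was sequenced from 6 CD1 mouse embryos at E13.5, from the dorsal telencephalon in front of the hippocampus, from which the neocortex develops. Into the telencephalic vesicles, 3 embryos (6, 7 and 8 in the labels) were given 100 ng of FGF2, which signals through FGF receptors, and 3 (7, 8 and 9) were given vehicle alone (PBS plus 0.1% BSA). No mutant allele, transgene or Cre line is named for either group. The labels do not give the litter of each embryo or the time from injection to collection, and the numbers 7 and 8 denote different embryos in the 2 groups. Where p-values are given, they measure the spread between these 6 embryos.

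The RNA came from coronal frozen sections fixed in formalin, and the deposited counts are reads over each gene's span from start to end, introns included. Total counts were 61489462 to 81532334 a library. Vehicle 9 held even counts only (in the other libraries 51.0% to 51.9% of genes with reads had an even count), and its total with counts halved was 32112664. Reads of Y-linked genes and Xist marked the 3 FGF2 embryos and vehicle 7 as male and vehicles 8 and 9 as female, so vehicle 7 was the only control of the same sex as the FGF2 embryos. Of 8 markers of the dorsal telencephalon, all were measured in every embryo, with a summed level of 1694 to 1736 CPM (counts scaled to library size by edgeR's TMM method) in the FGF2 embryos and 2394 to 2558 in the vehicle embryos. With edgeR's quasi-likelihood test and Benjamini-Hochberg adjustment over the 21983 genes that passed the filter on low counts, 590 genes (2.68%) were higher in the FGF2 embryos at an adjusted p under 0.05 and 209 (0.951%) were lower. In 3213 of them (14.6%), every FGF2 library lay above every vehicle library. The median log2 fold change of all tested genes was 0.01.

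Olig1 and Olig2 are basic helix-loop-helix factors that lie side by side in the genome. In the embryonic forebrain Olig2 is induced by Sonic hedgehog (Shh) in ventral progenitors, first of neurons and then of oligodendrocyte precursors, and the lineage enters the cortex from there before a later dorsal wave. Sox10 acts with Olig2 in precursor specification and is required for terminal differentiation, Sox8 is its partly redundant relative of the SoxE family, and Nkx2-2 is a ventral homeobox factor that also takes part in differentiation. Pdgfra, the receptor of PDGF-A, and Cspg4, the NG2 proteoglycan, are surface proteins by which oligodendrocyte precursors are recognised, although both also occur on mesenchymal or perivascular cells. Egfr, the EGF receptor, acts in neural and glial progenitors.

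The stretches before the start sites of 3 of the transcription factors are shown because these genes had different levels in the FGF2 embryos. Olig2 was high there. The Nkx2-2 span held reads in a subset of the FGF2 embryos and in none of the controls. These reads cannot be told from those of its antisense gene Nkx2-2as. Sox8 overlapped between the groups. Each is the 250 bases before the RefSeq gene start on the gene's own strand, 5′ to 3′, in the build GRCm38.p6, which is not the build of the count files. The table held 6 of the 8 genes, and Olig1 and Sox10 are not shown. Capitals mark a match to a searched motif. The Olig2 stretch lies at chr16:91225300-91225549 on the plus strand, that of Nkx2-2 at chr2:147186403-147186652 on the minus strand and that of Sox8 at chr17:25570687-25570936 on the minus strand.
Olig2: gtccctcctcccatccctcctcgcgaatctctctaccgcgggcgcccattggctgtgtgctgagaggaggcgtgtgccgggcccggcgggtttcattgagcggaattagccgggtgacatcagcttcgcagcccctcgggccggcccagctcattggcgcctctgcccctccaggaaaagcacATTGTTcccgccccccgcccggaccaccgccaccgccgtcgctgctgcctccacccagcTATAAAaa
Nkx2-2: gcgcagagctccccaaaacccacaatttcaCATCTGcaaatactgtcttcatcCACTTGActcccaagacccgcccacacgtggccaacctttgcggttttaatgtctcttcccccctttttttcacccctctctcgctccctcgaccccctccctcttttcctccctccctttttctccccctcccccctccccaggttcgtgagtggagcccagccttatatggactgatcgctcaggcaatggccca
Sox8: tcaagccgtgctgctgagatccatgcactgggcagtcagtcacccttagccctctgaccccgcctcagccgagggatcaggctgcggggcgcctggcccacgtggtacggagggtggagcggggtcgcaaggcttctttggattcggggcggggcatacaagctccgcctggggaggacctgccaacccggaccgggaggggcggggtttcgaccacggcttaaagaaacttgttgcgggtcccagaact

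Searched on both strands were a GLI core spelled GACCACCCA, an E-box spelled CAGCTG with others spelled as CATATG or as CAGATG, a SOX core spelled AACAAT, an NKX2 core spelled TNAAGTG and a TATA box spelled TATAAA. The Olig2 stretch held a SOX match on its reverse strand that begins 67 bases before the start and a TATA box that begins 8 bases before it. A SOX match was present in 9.42% and a TATA box in 12.4% of all 32851 promoters in the table. The Nkx2-2 stretch held the E-box with a GA centre 220 bases before the start (14.4% of all promoters) and an NKX2 match 197 bases before it (10.1%), both on the reverse strand. No match overlapped another. The Sox8 stretch held none of the searched letters, as did those of Egfr and Cspg4, while that of Pdgfra held the E-box with a GA centre. The GLI core was in 0.225% of all promoters and in none of the 6 stretches, which says only that these letters are absent from these windows. The Olig2 stretch had 66.8% G or C and 22 CpG dinucleotides, more than 85.2% of all promoters, against medians of 52.4% and 6.

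Olig1 and Olig2 had the highest FGF2 to vehicle ratios, with Sox10, among the 7 genes that passed the filter. Olig2 (ENSMUSG00000039830, chromosome 16, 91225795 to 91228922 in NCBIM37) had 2576, 2423 and 1659 reads in FGF2 embryos 6, 7 and 8, and 314, 272 and 200 in vehicle embryos 7, 8 and 9. These counts corresponded to 30.6, 34.2 and 25.8 CPM against 5.14, 4.07 and 3.18 CPM. The groups did not overlap, and the lowest FGF2 embryo lay above the highest vehicle embryo, which was the male vehicle 7. The mean was 30.2 ± 4.197 CPM (SD, n = 3) after FGF2 and 4.13 ± 0.982 CPM (SD, n = 3) after vehicle, a ratio of 7.32 and a log2 fold change of 2.87 ± 0.20 (SE). In bulk tissue, more cells that express a gene and more RNA per cell cannot be told apart.

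Olig1 (ENSMUSG00000046160, chromosome 16, 91270014 to 91272184) had 387, 484 and 370 reads in the FGF2 embryos and 31, 27 and 22 in the vehicle embryos. That gave 4.60, 6.82 and 5.75 CPM against 0.507, 0.404 and 0.349 CPM, with no overlap between the groups. Its mean was 5.73 ± 1.11 CPM (SD, n = 3) against 0.420 ± 0.0802 CPM (SD, n = 3), a ratio of 13.6 and a log2 fold change of 3.76 ± 0.26 (SE). Reads covered 99.1%, 99.4% and 93% of the short Olig1 span in the FGF2 embryos, and 57.8%, 52% and 28.9% in vehicle embryos 7, 8 and 9. In each group the embryo with the least covered span was also the one with the fewest Olig1 reads.

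The neighbouring genes were not equally abundant in either group. Compared per length, as RPKM (reads scaled for the length of the gene model and the depth of the library), Olig2 stood at 5.82, 4.35 and 3.90 times Olig1 in FGF2 embryos 6, 7 and 8. The same ratio was 8.99, 9.11 and 7.81 in vehicle embryos 7, 8 and 9. The 3 FGF2 ratios were all lower than the 3 vehicle ratios, so Olig1 differed by more between the groups than Olig2 did. The spans of Olig2 and Olig1 were 41091 bases apart, with no other span of the files between them. Within 500 kb, 28 tested genes surrounded Olig1 and 29 surrounded Olig2, mostly shared and with members left out. With edgeR, 0 of either passed an adjusted p of 0.05. At an unadjusted p under 0.05, 4 were higher and 2 lower around Olig1 and 4 higher and 1 lower around Olig2. How many of all genes reached that unadjusted p was not counted. DESeq2 and limma on RPKM also called 0 of these neighbours.

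**Figure D1:**
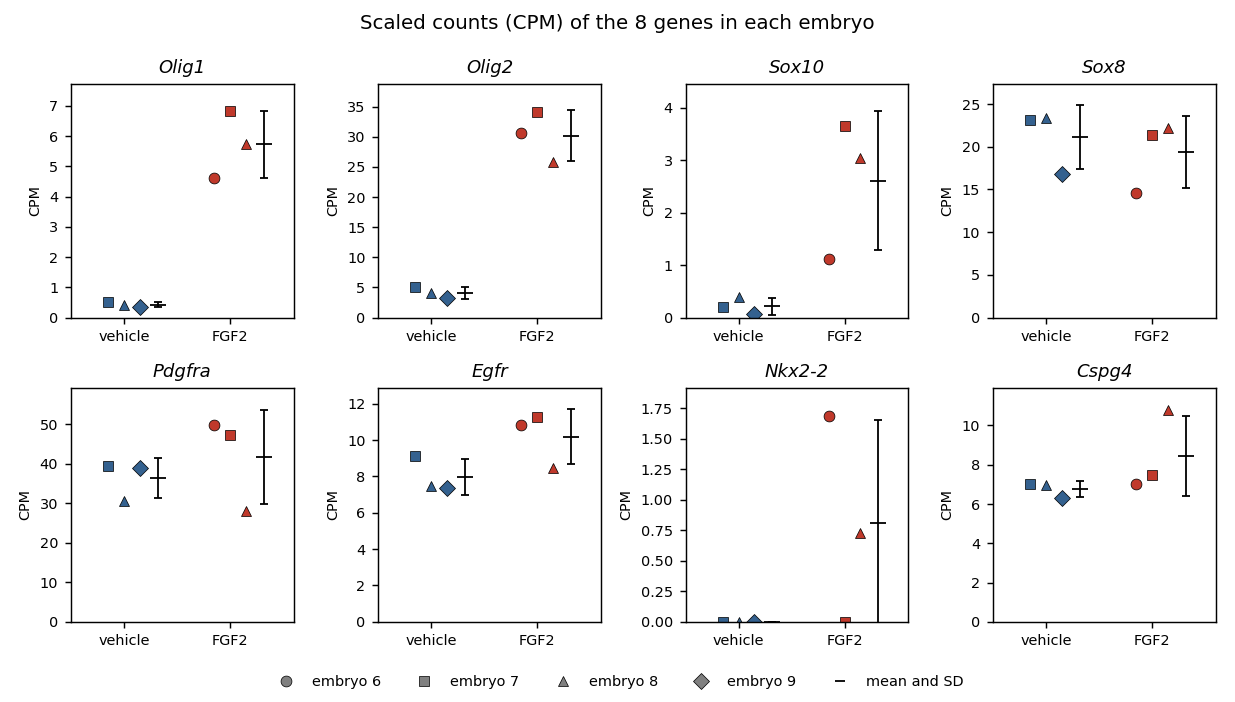
CPM (vertical axes, each starting at 0) of the 8 genes in each of 3 vehicle (blue) and 3 FGF2 (red) embryos, with the mean and SD as a black bar beside each group, cut at 0. Marker shapes give the embryo number in the labels, which is not stated to pair embryos. Olig1, Olig2 and Sox10 show no overlap between groups, Nkx2-2 is at 0 in 4 embryos, and the other genes overlap.

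The SoxE genes differed from each other. Sox10 (ENSMUSG00000033006, chromosome 15, 78985343 to 78994920) had 94, 260 and 196 reads in FGF2 embryos 6, 7 and 8, and 12, 26 and 4 in vehicle embryos 7, 8 and 9. On the CPM scale this was 1.12, 3.67 and 3.05 against 0.196, 0.389 and 0.0635. FGF2 6 stood well below the other FGF2 embryos, yet above every vehicle embryo. The mean was 2.61 ± 1.33 CPM (SD, n = 3) against 0.216 ± 0.164 CPM (SD, n = 3), a ratio of 12.1 with a log2 fold change of 3.57 ± 0.65 (SE), the widest error among the 7 genes. When 1 embryo at a time was left out, the log2 fold change of Sox10 stayed between 3.14 and 4.31, while its edgeR call was kept only without FGF2 6.

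Sox8 (ENSMUSG00000024176, chromosome 17, 25702837 to 25707631) had 1222, 1517 and 1431 reads in the FGF2 embryos and 1415, 1565 and 1062 in the vehicle embryos. In CPM these were 14.5, 21.4 and 22.2 against 23.1, 23.4 and 16.9. The ranges overlapped, with the lowest value in an FGF2 embryo and the next lowest in vehicle 9. The means of 19.4 ± 4.23 and 21.1 ± 3.71 CPM (SD, n = 3 each) differed by less than either SD, at a log2 fold change of -0.13 ± 0.19 (SE). Per length, Sox8 stood at 12.6, 5.43 and 7.56 times Sox10 in the FGF2 embryos and at 99.5, 53.0 and 218 times in the vehicle embryos. Sox8 was thus the more abundant of the pair in all 6 embryos, by a smaller margin after FGF2.

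Nkx2-2 (ENSMUSG00000027434, chromosome 2, 147003282 to 147019979) had 142, 0 and 47 reads in FGF2 embryos 6, 7 and 8 and 0 in all vehicle embryos. The groups overlapped because FGF2 7 also had 0 reads, and the gene did not pass the filter on low counts. Over the groups, the FGF2 level was at least 54.9-fold higher than a floor of 3 reads over the 3 vehicle libraries, a bound on counting error only. Its span overlaps that of the antisense gene Nkx2-2as, which had 116, 1 and 47 reads in the FGF2 embryos and 2, 1 and 2 in the vehicle embryos. It also overlaps 6430503K07Rik, with 2 reads in FGF2 6 and 0 elsewhere. Whether strand was used is not stated in the sources at hand, and reads of Nkx2-2 and of its antisense partner cannot be told apart.

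Pdgfra (ENSMUSG00000029231, chromosome 5, 75548316 to 75594229) was the most abundant of the surface proteins and overlapped between the groups. It had 4182, 3350 and 1803 reads in FGF2 embryos 6, 7 and 8, and 2412, 2043 and 2456 in the vehicle embryos, or 49.7, 47.2 and 28.0 CPM against 39.5, 30.6 and 39.0 CPM. FGF2 8 had the lowest value of all 6 embryos, and the other FGF2 embryos had the highest. The means were 41.7 ± 11.9 and 36.3 ± 5.002 CPM (SD, n = 3 each), with a log2 fold change of 0.20 ± 0.22 (SE). The nearest span on its left was that of the ventral homeobox gene Gsx2.

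Egfr (ENSMUSG00000020122, chromosome 11, 16652206 to 16818161) had 911, 798 and 543 reads in the FGF2 embryos and 557, 499 and 464 in the vehicle embryos. Expressed as CPM, these were 10.8, 11.2 and 8.44 against 9.11, 7.46 and 7.37. Vehicle 7 lay above FGF2 8, so the groups overlapped by that pair alone, and the male control was the highest of the controls. The means were 10.2 ± 1.51 and 7.98 ± 0.980 CPM (SD, n = 3 each), a ratio of 1.27 with a log2 fold change of 0.35 ± 0.16 (SE). The spans of Gm17664 and E230015J15Rik overlap that of Egfr, with at most 8 reads in any library.

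Cspg4 (ENSMUSG00000032911, chromosome 9, 56712911 to 56747677) had 591, 532 and 695 reads in the FGF2 embryos and 430, 465 and 396 in the vehicle embryos. The corresponding levels were 7.03, 7.50 and 10.8 CPM against 7.03, 6.96 and 6.29 CPM. FGF2 8 was the highest, and FGF2 6 lay just below vehicle 7. The means of 8.44 ± 2.06 and 6.76 ± 0.411 CPM (SD, n = 3 each) gave a log2 fold change of 0.32 ± 0.19 (SE).

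Of the 8 genes, 7 passed the filter on low counts. edgeR called 3 of these 7 higher (Olig1, Olig2 and Sox10) and did not call the other 4. The genes were chosen with this contrast in view, so the count of 3 is printed beside the 2.68% of all tested genes only for scale, and nothing is read from it. The same holds for the 3 genes whose groups did not overlap beside the 14.6% of all tested genes. Olig1 and Sox10 had few vehicle reads, 80 and 42 over the 3 libraries, and passed the filter largely through the FGF2 embryos. With embryo sex as a covariate in the fit, which leaves vehicle 7 as the only male control, none of the 7 was called, and the log2 fold changes of Olig1, Olig2 and Sox10 were 3.49 ± 0.42, 2.56 ± 0.26 and 3.72 ± 1.16 (SE). The male vehicle 7 alone stood at 0.507 CPM for Olig1, 5.14 for Olig2 and 0.196 for Sox10, below each of the FGF2 embryos, which were all male.

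The order of the levels per length also differed between the groups. In the vehicle embryos Sox8 was first with 6.90 ± 1.31 RPKM (SD, n = 3), Pdgfra second with 5.605 ± 0.733 and Olig2 next with 1.765 ± 0.432. Sox8 and Pdgfra overlapped in range, and both lay above Olig2 in every vehicle embryo. Cspg4 (0.827 ± 0.0611) and Egfr (0.717 ± 0.0876) also overlapped, followed by Olig1 (0.203 ± 0.0375), Sox10 (0.0820 ± 0.0598) and Nkx2-2 at 0 reads. The vehicle level of Sox8 was above that of 78.0% of all genes with an RPKM, that of Olig2 above 64.3% and that of Olig1 above 50.6%. Genes listed at 0 are among those below. For scale, the ligand gene Ereg, at a vehicle mean of 0.0027 RPKM, was above 32.3%.

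After FGF2, Olig2 was first with 13.2 ± 2.01 RPKM (SD, n = 3), and its lowest embryo, at 11.1, lay above the highest of Pdgfra (8.07) and of Sox8 (7.21). Pdgfra (6.63 ± 2.06) and Sox8 (6.49 ± 1.22) again overlapped. Olig1 stood at 2.88 ± 0.557, above Cspg4 (1.09 ± 0.246), Egfr (0.956 ± 0.143) and Sox10 (0.894 ± 0.464), which overlapped with one another. Nkx2-2 was last at 0.392, 0 and 0.199 in embryos 6, 7 and 8.

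**Figure D2:**
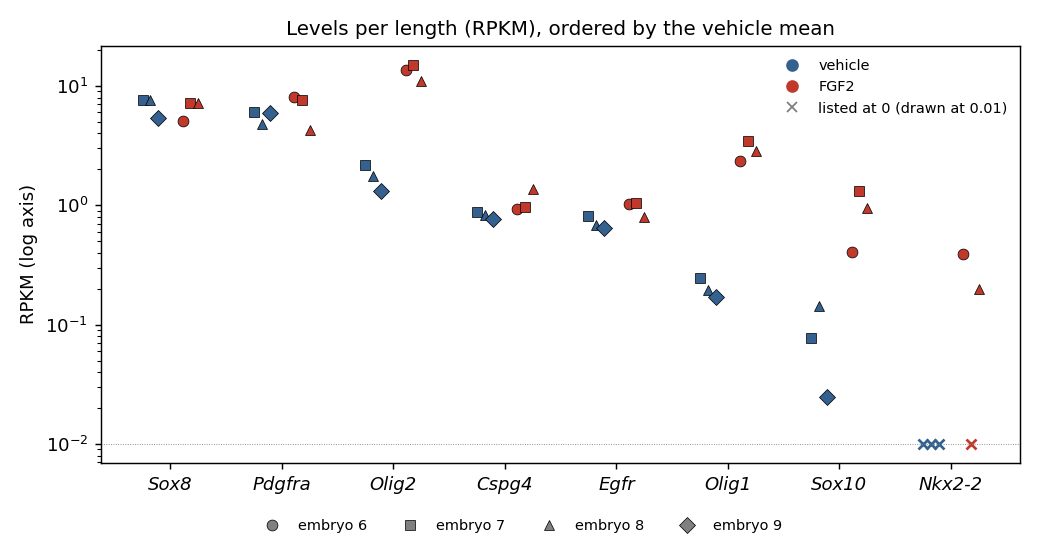
RPKM on a log axis for the 8 genes in each embryo, ordered by the vehicle mean, with vehicle embryos in blue and FGF2 embryos in red; crosses mark values listed at 0, drawn at 0.01. Olig2 is below Sox8 and Pdgfra in the vehicle embryos and above both in the FGF2 embryos, at 11.1 to 15.0 RPKM.

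The genes around these 8 were followed in lists chosen with earlier results of these data in view. They are to be read beside all tested genes, of which 2.68% rose and 0.951% fell with edgeR. Of these 21983 genes 11309 had a positive log2 fold change, and the median was 0.01. Over all genes, DESeq2 called 1359 higher and 706 lower of 28983, and limma on RPKM 318 and 114 of 13894. Without FGF2 8, edgeR called 964 higher and 979 lower of 22373. How many of all genes reached an unadjusted p under 0.05 was not counted, so list counts at that threshold have no background beside them. The Shh pathway and ventral patterning genes that act upstream of Olig2 had the most calls. Of 15 tested members, 8 rose with edgeR and 0 fell, and their median log2 fold change was 2.29. At an unadjusted p under 0.05, 12 were higher and 0 lower, and DESeq2 called 11 higher and 0 lower. Shh, the ligand, had 545 reads over the FGF2 libraries and 2 over the vehicle libraries, both in vehicle 9, a ratio of 237 with an exact binomial 95% interval of 65.4 to 1964 (edgeR adjusted p = 0.001821). The interval covers counting error only and is too narrow if the 2 reads were 1 read counted 2 times, since vehicle 9 holds even counts only. Its transcriptional effector Gli1, itself a target of the pathway, rose from 1.64 ± 0.367 to 19.1 ± 5.68 CPM (log2 fold change 3.54 ± 0.29, edgeR adjusted p = 0.001581).

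Nkx2-1, the homeobox factor of the medial ganglionic eminence and a relative of Nkx2-2, rose from 1.63 ± 0.382 to 48.7 ± 19.2 CPM (log2 fold change 4.89 ± 0.37, edgeR adjusted p = 0.001581). Gsx1, a homeobox factor of the ganglionic eminences, had 541 reads over the FGF2 libraries and 0 over the vehicle libraries, at least 157-fold higher than a vehicle floor of 3 reads in all (edgeR adjusted p = 0.001874). The called members also included the receptor Ptch1 and the hedgehog-binding protein Hhip. Ptch1 went from 9.19 ± 0.926 to 32.2 ± 9.02 CPM. Hhip lost its call when any embryo but FGF2 8 was left out, with adjusted p up to 0.124. Gsx2, Dlx1 and Dlx2 had log2 fold changes of 2.29, 2.31 and 2.30 and did not pass, with adjusted p = 0.1918, 0.09003 and 0.1373 by edgeR, and Smo, Gli2 and Gli3 were at -0.24, -0.20 and -0.31 without a call.

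Of 16 tested genes of oligodendrocyte precursors, 1 rose and 2 fell with edgeR (2.68% and 0.951% of all tested genes), while 13 had a positive log2 fold change and the median was 0.46. At an unadjusted p under 0.05, 6 were higher and 2 lower, and DESeq2 called 3 higher and 2 lower. Their summed level was 937 to 1025 CPM in the FGF2 embryos and 837 to 928 CPM in the vehicle embryos, with no overlap. The sum is weighted towards its most abundant genes, none of them called by edgeR. These were Vcan, Ptprz1 (201 ± 9.74 against 150 ± 33.1 CPM) and Pcdh15 (195 ± 9.77 against 186 ± 9.94 CPM). Serpine2, a secreted protease inhibitor, rose from 5.27 ± 0.254 to 17.6 ± 4.03 CPM (log2 fold change 1.74 ± 0.19, edgeR adjusted p = 0.003817). Rlbp1, which carries retinoids, fell from 53.0 ± 8.17 to 18.9 ± 1.97 CPM (log2 fold change -1.49 ± 0.13, edgeR adjusted p = 0.002028). Sox6, a SoxD factor also active in neural progenitors, fell from 111 ± 9.38 to 75.6 ± 3.79 CPM (log2 fold change -0.56 ± 0.09, edgeR adjusted p = 0.01591), and its call was lost on leaving out FGF2 7, vehicle 7 or vehicle 8, with an adjusted p of up to 0.0884.

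The proteoglycan Vcan was at 265 ± 33.7 CPM against 187 ± 13.7, with an edgeR adjusted p of 0.05247. Gpr17, a receptor of committed precursors, was at 1.11 ± 0.642 against 0.181 ± 0.167 CPM, and the proteoglycan Bcan at 13.9 ± 9.53 against 3.97 ± 2.26 CPM, neither past the threshold (edgeR adjusted p = 0.1583 and 0.1703). Without FGF2 8, 6 of the 16 were called in place of 3, 3 higher and 3 lower.

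Genes of myelin and oligodendrocyte maturation showed no call. edgeR called 0 of 14 tested, 2 were higher and 0 lower at an unadjusted p under 0.05, DESeq2 called 1 higher and limma on RPKM called 0. Their median log2 fold change was 0.10. Mobp, a myelin protein gene, had 152 reads over the FGF2 libraries and 0 over the vehicle libraries, at 1.31, 0.437 and 0.171 CPM in FGF2 embryos 6, 7 and 8 (edgeR adjusted p = 0.05652), at least 44.1-fold above the floor of 3 reads over the vehicle group. Mbp was at 20.2 ± 3.76 against 17.8 ± 0.858 CPM, and its groups overlapped. Cnp, the most highly expressed of the 4 with the smallest p, stood at 164 ± 10.8 against 153 ± 4.59 CPM, Ermn at 2.44 ± 1.10 against 1.49 ± 0.482 and Aspa at 0.306 ± 0.156 against 0.0898 ± 0.0877. Mag, Opalin, Enpp6 and Gjb1 stayed below 0.5 CPM in every embryo and were not tested. Without FGF2 8, 1 gene of the list was called.

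Of 20 tested ligands and co-receptors of PDGF and EGF signalling, 1 rose with edgeR and 0 fell, close to the 2.68% and 0.951% of all tested genes, with a median log2 fold change of 0.03. At an unadjusted p under 0.05, 5 were higher and 1 lower, DESeq2 called 3 higher and 0 lower, and limma on RPKM called 0. The called gene was Erbb3, a neuregulin receptor, at 3.45 ± 1.09 against 1.45 ± 0.0658 CPM (log2 fold change 1.25 ± 0.27, edgeR adjusted p = 0.04951). Its call was lost without FGF2 7 or any of the vehicle embryos, with adjusted p up to 0.204. Without FGF2 8, 2 genes of the list were called, and without vehicle 7, 8 or 9, none was. Pdgfa, which encodes the main ligand of Pdgfra, was at 24.2 ± 4.41 against 18.1 ± 5.71 CPM, with overlapping groups. Erbb4, another neuregulin receptor, was at 31.8 ± 13.6 against 11.5 ± 2.89 CPM, the Egfr family regulator Lrig3 at 16.6 ± 3.29 against 10.01 ± 1.196 CPM and the neuregulin Nrg2 at 2.24 ± 0.457 against 1.37 ± 0.334 CPM, none of them past the threshold (edgeR adjusted p = 0.06613, 0.06586 and 0.2079).

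Among 14 gliogenic factors 2 rose and 1 fell with edgeR (2.68% and 0.951% of all tested genes), 5 had a positive log2 fold change and the median was -0.17. The direction of most calls depended on the setting. An unadjusted p under 0.05 and DESeq2 each gave 3 higher and 5 lower, while limma on RPKM called 2 higher and 0 lower. Their summed level was 2758 to 3911 CPM in the FGF2 embryos and 4323 to 4644 CPM in the vehicle embryos, with no overlap. The sum is weighted towards its most abundant genes, neither of them called by edgeR. These were Sox4 (923.5 ± 267.6 against 1032 ± 50.1 CPM, overlapping) and Nfib (688 ± 216 against 1204 ± 82.1 CPM). The BMP-responsive inhibitors Id1 and Id3 rose, from 7.62 ± 0.603 to 18.0 ± 2.17 CPM and from 19.8 ± 2.11 to 46.1 ± 8.31 CPM (edgeR adjusted p = 0.003746 and 0.006459). Sox9, the SoxE factor of neural progenitors and glia, fell from 290.5 ± 15.4 to 193 ± 29.9 CPM (log2 fold change -0.59 ± 0.12, edgeR adjusted p = 0.04287), and its call was lost without FGF2 6 or any of the vehicle embryos (adjusted p up to 0.175). Nfix, a nuclear factor of the glial switch, was at 265 ± 63.5 against 471 ± 52.1 CPM without a call (edgeR adjusted p = 0.05242). Without FGF2 8, 9 of the 14 were called in place of 3, 3 higher and 6 lower.

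The closest relatives of the 8 genes were also followed, and 4 of 12 tested rose while 1 fell with edgeR (2.68% and 0.951% of all tested genes), with a median log2 fold change of 0.39. At an unadjusted p under 0.05, 7 were higher and 2 lower, and DESeq2 called 5 higher and 2 lower. Olig3, the remaining gene of the Olig family, known from the dorsal spinal cord and thalamus, had 20.5, 4.33 and 11.8 CPM in FGF2 embryos 6, 7 and 8 and 0.409, 0.359 and 0.222 in the vehicle embryos. Its mean was 12.2 ± 8.08 against 0.330 ± 0.0967 CPM (log2 fold change 5.20 ± 0.62, edgeR adjusted p = 0.00629). Nkx2-3 rose from 2.88 ± 0.540 to 8.21 ± 1.57 CPM (log2 fold change 1.51 ± 0.21, edgeR adjusted p = 0.01063), a call lost without vehicle 8 or 9 (adjusted p up to 0.073). Olig3 and Olig2 did not have their highest FGF2 values in the same embryo. The other called relatives were Nkx2-1, Erbb3 and Sox9. Without FGF2 8, 8 relatives were called, 5 higher and 3 lower, and without vehicle 7, 8 and 9 in turn 3, 2 and 2 were.

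**Figure D3:**
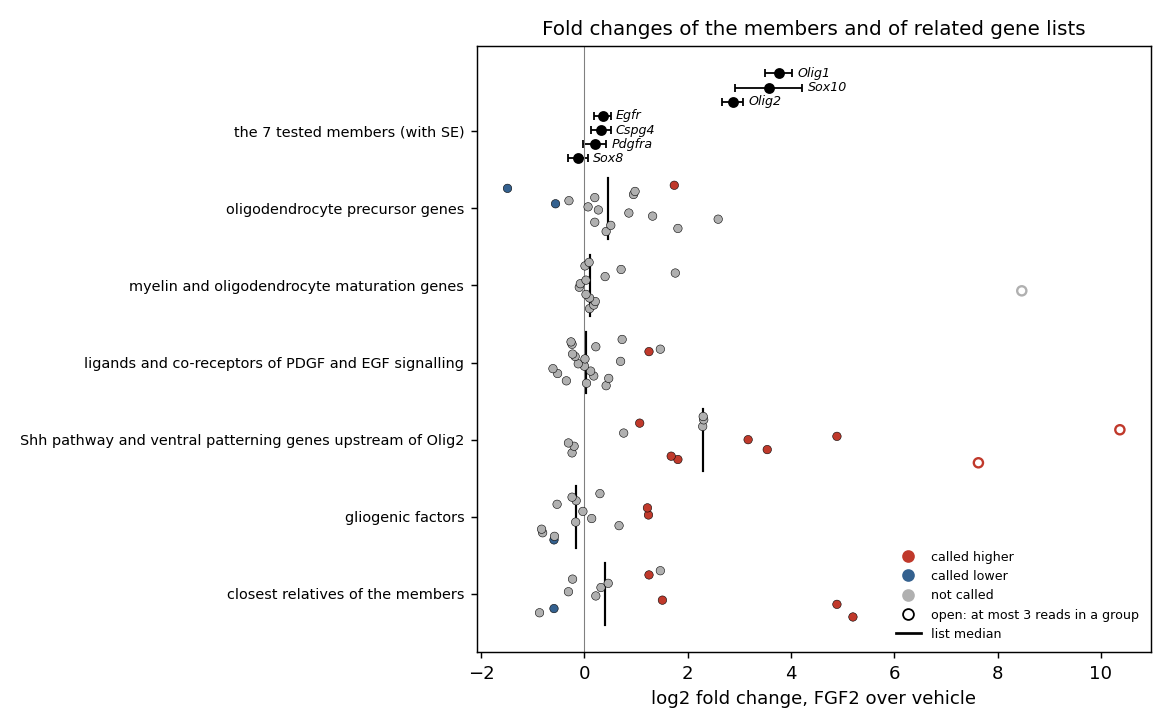
Log2 fold changes, FGF2 over vehicle (horizontal axis), of the 7 tested genes of the oligodendrocyte lineage with SE bars (top) and of the tested genes of 6 related lists, 1 point a gene, with the list median as a vertical bar. Red and blue points passed an adjusted p of 0.05 with edgeR, and open points have at most 3 reads in a group, where the fitted value depends on the prior count. Olig1, Sox10 and Olig2 lie between 2.87 and 3.76, the median of the Shh and ventral list at 2.29 and the other medians between -0.17 and 0.46.

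Markers of other cell types that the sections could hold were summed in each embryo, without the 8 genes. These lists, too, were chosen with earlier results of these data in view. Their calls are a description, to be read beside the 2.68% of all tested genes called higher and the 0.951% called lower. Ventral telencephalic neurons and interneurons moved in the same direction as Olig1, Olig2 and Sox10. All 8 of these markers (Lhx6, Lhx8, Isl1, Gad1, Gad2, Slc32a1, Dlx5 and Dlx6) rose with edgeR, and their sum was 236, 255 and 360 CPM in FGF2 embryos 6, 7 and 8 and 40.7, 42.3 and 16.6 in vehicle embryos 7, 8 and 9. Of 8 dorsal telencephalic markers, 4 fell (Emx1, Eomes, Neurog2 and Pax6). The choroid plexus list had 5 of 7 higher and 1 lower, at 170 to 475 CPM against 21.2 to 23.1 CPM. Most of its vehicle sum was Aqp1, the gene that was lower (9.005 ± 3.40 against 19.9 ± 0.357 CPM). On average, the largest part of its FGF2 sum was Ttr (192 ± 176 against 0.287 ± 0.181 CPM), which varied widely between embryos. Markers of the diencephalon and hypothalamus summed to 76.9 to 195 CPM against 41.2 to 45.7 CPM, with 2 of 5 tested higher (Gbx2 and Tcf7l2). Otp, Nkx2-4 and Sim2 were under 0.5 CPM in every embryo. Sim2 still had 74 reads over the FGF2 libraries and 4 over the vehicle libraries, without a call (edgeR adjusted p = 0.07704). Rax, which was not tested, had 193 reads over the FGF2 libraries and 0 over the vehicle libraries. Its groups did not overlap. The part of these tissues in the levels of Olig1, Olig2, Sox10 and Nkx2-2 was not tested.

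Sox10 is also a marker of the neural crest and of Schwann cell precursors. The other 7 markers of that list summed to 52.1 to 55.5 CPM after FGF2 and 45.2 to 46.8 after vehicle, and of these Erbb3 was the 1 that passed. Foxd3 stood at 0.730 ± 0.351 against 0.0704 ± 0.0958 CPM and was not called by edgeR (adjusted p = 0.0996). Dhh stayed below 0.5 CPM in every embryo. The part of neural crest cells in the Sox10 level was not tested.

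Pdgfra and Cspg4 occur on mesenchymal and perivascular cells as well. Mesenchymal and meningeal markers summed to 2290 to 2602 CPM after FGF2 and 3643 to 4193 CPM after vehicle, with Col1a1 and Col1a2 lower and Foxd1 higher among 12. Most of that sum came from 3 collagens, Col1a1 (932 ± 43.7 against 1760 ± 89.2 CPM), Col1a2 (631 ± 54.5 against 1032 ± 115.5 CPM) and Col3a1 (608.5 ± 102.3 against 870.2 ± 59.4 CPM, not called). Of the 12 markers 7 had a positive log2 fold change, and the list's median was 0.04, so most of them did not follow the lower sum. The 9 pericyte markers summed to 222 to 239 CPM against 230.0 to 268 CPM. The largest part of that sum was Notch3 (103 ± 23.6 against 144 ± 10.9 CPM, not called). Of the 9 markers 6 had a positive log2 fold change, and their median was 0.22, so most of them did not follow Notch3. edgeR called 0 of the 9, with 2 higher and 1 lower at an unadjusted p under 0.05 and 0 calls with DESeq2 and limma on RPKM. The sums for endothelium (196 to 219 against 183 to 209 CPM) and for astrocytes (92.7 to 109 against 96.1 to 118 CPM) overlapped between the groups. Most of the astrocyte sum came from Slc1a3 (92.1 ± 4.66 against 98.6 ± 10.9 CPM). Aqp4 (0.844 ± 0.198 against 0.534 ± 0.00909 CPM) and S100b (1.04 ± 0.705 against 0.332 ± 0.0873 CPM) were higher in every FGF2 embryo. Slc1a3, Gfap and Aldh1l1 overlapped, and edgeR called 0 of the 5 astrocyte markers. The part of these cells in the levels of Pdgfra, Cspg4 and Egfr was not tested.

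**Figure D4:**
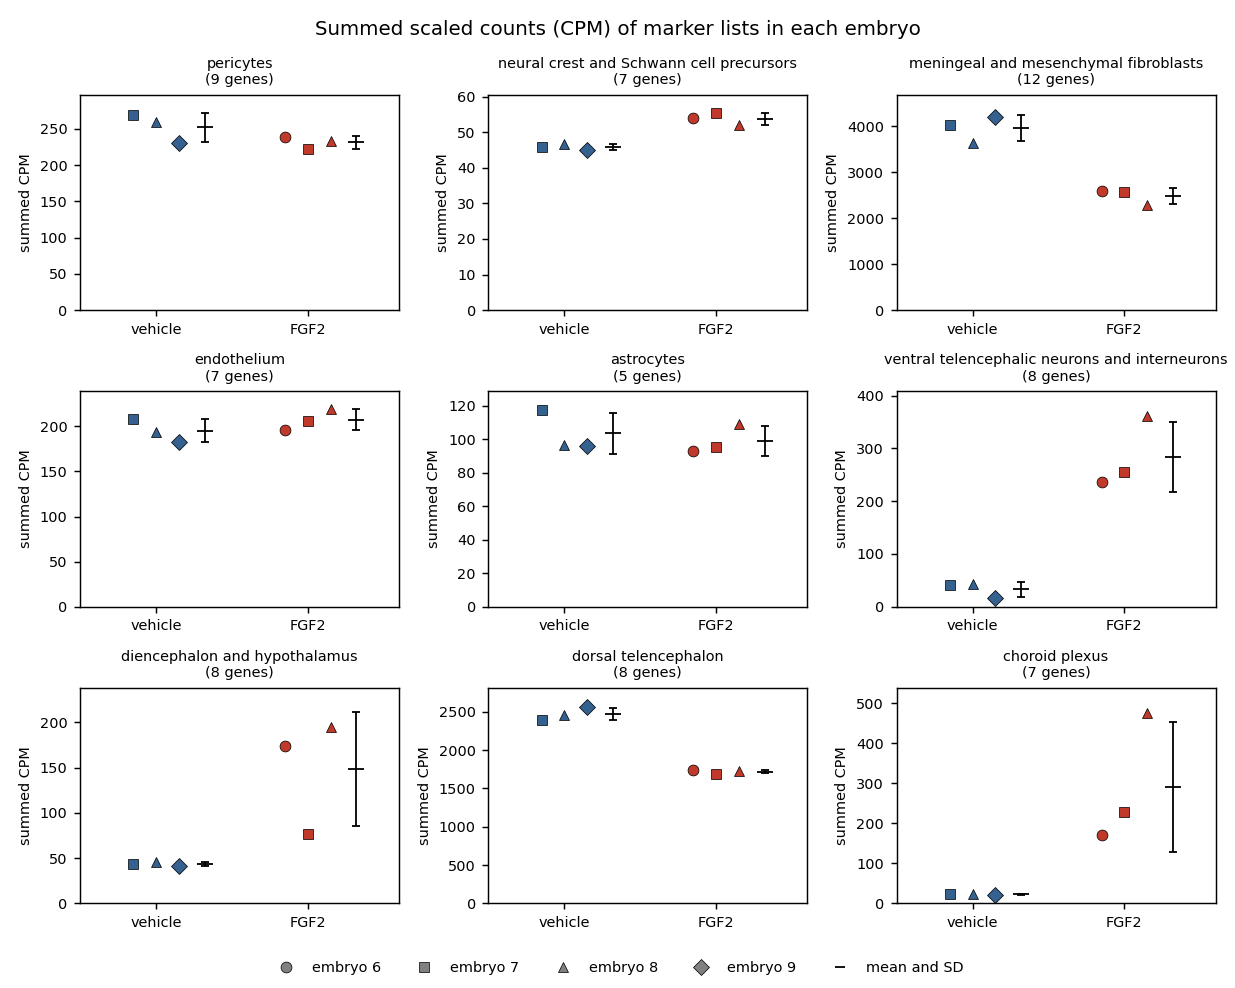
Summed CPM (vertical axes from 0) of 9 marker lists in each vehicle (blue) and FGF2 (red) embryo, with mean and SD as a black bar beside each group; the 8 oligodendrocyte lineage genes are left out of the sums. Ventral, diencephalic, choroid plexus and neural crest sums lie higher in every FGF2 embryo, dorsal and mesenchymal sums lie lower, and the pericyte, endothelium and astrocyte sums overlap.

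The genes whose levels over the 6 libraries most resembled each of the 8 were taken from 17399 tested genes that averaged 1 CPM or more, by Pearson r of log2(CPM + 0.5), as a description without a p. All share the same 6 libraries, and a gene that differs between the groups will resemble any other that does. Closest to Olig2 were the chloride channel gene Ano1 (42.7 ± 6.69 against 7.89 ± 2.36 CPM), the spondin Spon1 and Rgl3, each with r = 0.997. Closest to Olig1 were Megf11 (23.9 ± 2.85 against 6.51 ± 0.409 CPM), the ligand Fgf3 (3.26 ± 0.355 against 0.211 ± 0.116 CPM) and Sowaha, also each with r = 0.997. Sox10 was most like Arl4d (r = 0.998), Rbm24 (0.996) and Gngt2 (0.993).

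Among the genes with overlapping groups, Sox8 was closest to Yipf3 (r = 0.987), mt-Td and Ier3, Pdgfra to Galk1 (0.991), Tmem55a and Cep57l1, and Egfr to Gp49a (0.992), Lonrf3 and P2rx7. Cspg4 was closest to Ankrd36 (0.997), Osbpl6 and Dclk2. Nkx2-2, which rests on reads in 2 embryos, was closest to Plcb4 (0.998), Cnot10 and Uimc1. None of the 8 genes was among the 3 closest of another.

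Around the remaining genes, calls within 500 kb were counted beside the 2.68% of all tested genes called higher and the 0.951% called lower with edgeR. Over all genes, DESeq2 called 1359 higher and 706 lower of 28983, and no share was counted at an unadjusted p under 0.05. With edgeR, 1 of 45 tested neighbours of Sox8 was higher (Metrn), 2 of 14 of Egfr (Vstm2a and Plek), 1 of 5 of Pdgfra (Chic2) and 1 of 4 of Nkx2-2 (Pax1), while 1 of 36 neighbours of Sox10 was lower (Gm16059). At an unadjusted p under 0.05 there were 3 higher and 7 lower around Sox8, 3 and 1 around Egfr, 3 and 0 around Pdgfra, 3 and 0 around Nkx2-2, and 1 and 2 around Sox10. DESeq2 called 3 higher and 2 lower around Sox8, 3 and 1 around Egfr, 1 and 0 around Pdgfra, 1 and 0 around Nkx2-2, and 0 and 2 around Sox10. Of 17 neighbours of Cspg4, 0 passed with edgeR, 1 was higher at an unadjusted p under 0.05, and DESeq2 and limma on RPKM called 0.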

How the data were processed

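RNA-seq files of 6 embryos were used, 1 library each. The submitters' processing notes name bedtools 2.12.0, TopHat2 2.0.9, CASAVA 1.8 and Bowtie2 2.1.0.0, and the build NCBIM37 (mm9). The role of each tool and the use of strand are not stated there. The count files as deposited by the authors hold whole reads per gene span, with the covered bases and the covered fraction of the span. The deposited RPKM files hold values per length and depth for each symbol, and were joined to 34290 genes by symbols that occur once. Spans count introns, and 14817 of 37991 overlap another gene. Coordinates are 1-based, as in the files.

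The unaltered counts were fitted in edgeR 4.0.16 (R 4.3.3, filterByExpr, TMM, robust quasi-likelihood fit, no covariate) and adjusted over 21983 genes. Alternatives were RLE or total scaling, other filters, DESeq2 1.42.0, limma 3.58.1 on log2(RPKM + 1) or log2(RPKM + 0.1), leaving out each embryo, embryo number as a block, sex as a covariate, halved counts of vehicle 9 and non-overlapping spans only. The members and lists were chosen with earlier results of these data known. Named genes were all members, the 4 smallest p of each list, the 3 genes of closest pattern to each member, and others of the lists chosen after their values were seen (among them Pdgfa, Mbp, Gpr17 and Bcan). Results that need items withheld from this text are not reported here. Myrf is listed as Gm98. Intervals and floors cover counting error only, since reads have no molecular identifiers, and a permutation of 3 against 3 cannot give a two-sided p below 0.1.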

Additional observations from a re-analysis of the deposited data

How the results depend on the processing

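No alternative reversed the direction of a called gene of the 8; Sox8, which was not called, ranged from -0.27 to 0.04 on the log2 scale. Over all tested genes the count of calls was 799 (73.8% higher) and became 2065 with DESeq2 (65.8% higher), 432 and 431 with limma on log2(RPKM + 1) and log2(RPKM + 0.1), 271 on log2(RPKM + 1) without a filter (84.5% higher), 488 over non-overlapping spans, 5 with sex as a covariate and 218 to 1943 when 1 embryo was left out, the last without FGF2 8 (49.6% higher). Over the 6 lists together the 17 calls became 31 with DESeq2, 11 on unfiltered log2(RPKM + 1), 1 with sex and 11 to 31 with 1 embryo left out. The calls of the precursor list (3) became 5 with DESeq2, 1 with sex and 2 to 6 with 1 embryo left out. Those of the myelin list (0) became 1 with DESeq2, 1 over non-overlapping spans and 0 to 1 with 1 embryo left out. Those of the ligand list (1) became 0 with RLE size factors, 3 with DESeq2, 0 in each of the 3 RPKM settings, 0 with sex and 0 to 2 with 1 embryo left out. The Shh list (8) had 0 with sex and 6 to 10 with 1 embryo left out, the gliogenic list (3) had 8 with DESeq2, 0 with sex and 2 to 9, and the relatives (5) had 3 and 3 in the filtered RPKM settings, 2 in the unfiltered one, 0 with sex and 2 to 8.

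The log2 fold change of Olig1 (3.76) was 1.68 on log2(RPKM + 1) with and without a filter, 3.29 on log2(RPKM + 0.1), 3.49 with sex and 3.61 to 3.91 with 1 embryo left out. That of Olig2 (2.87) was 2.37 on log2(RPKM + 1) with and without a filter, 2.56 with sex and 2.71 to 3.05 with 1 embryo left out. Sox10 (3.57) was 0.78 on unfiltered log2(RPKM + 1), not called there, and 3.14 to 4.31 with 1 embryo left out, the last without vehicle 8. Egfr (0.35) was 0.16 with sex. A pseudocount of 1 exceeds the vehicle RPKM of Olig1 and Sox10 and compresses their ratios by construction. For the other changes the cause was not tested.

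Embryo numbers 7 and 8 occur in both groups. Deviations from the group means correlated at -0.0434 and -0.0184 between embryos of the same number over 21983 genes. These values show no sign of pairing by number, but with 3 embryos a group they cannot settle whether embryos shared a litter. With the number as a replicate block, 703 genes were called in all, 5 in the precursor list, 1 in the myelin list and 2 in the ligand list. The log2 fold changes of Olig1, Olig2 and Sox10 were 3.79, 2.70 and 3.53. FGF2 6 and vehicle 9 each form a block of their own there, so the group difference in that fit comes from embryos 7 and 8 alone. Nkx2-2 had no fitted value in the main fit, so no alternative is given for it. The low vehicle reads of Sox10 and Nkx2-2, and fixed tissue, limit what depth can show for them.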
